A study of Mus musculus with 12 samples.

Results

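Ucp2, Ucp3, Pdk4, Angptl4, Acot1, Acot2, Plin2 and Plin5 are 8 genes of lipid handling in the mouse heart, most of them known targets of the peroxisome proliferator-activated receptors (PPARs). They were taken by symbol from a table of 29564 genes and were chosen by their levels in these same 12 libraries, so their levels and differences are a description and no p is given for them. Where a member is said to pass the threshold of the fit over all genes, or to lose it, nothing is read from that. All 8 passed the filter on low counts that left 14333 genes for the fit. The libraries are bulk poly(A) RNA-seq of the left ventricle of wild-type C57BL6 mice, 4 hearts in each of 3 groups. Control + Veh hearts were non-failing and came from animals given vehicle. HFpEF + Veh hearts came from mice made to develop heart failure with preserved ejection fraction by a high-fat diet together with L-NAME, an inhibitor of nitric oxide synthases, and given the same vehicle. HFpEF + TYA-018 hearts came from mice on the same regimen that were dosed by mouth with 15 mg/kg of TYA-018, a compound that blocks the deacetylase HDAC6. The series title and the study's text describe 1 dose, with the hearts taken hours later, whereas the treatment label describes daily dosing over weeks; all groups share strain, sex (male in the study's methods) and vehicle, and the diet and L-NAME cannot be told apart from each other. The age at collection was not given in the sources used here.

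PPARs are nuclear receptors that bind fatty acids and, paired with retinoid X receptors, switch on genes for fatty acid use. Ucp2 and Ucp3 encode carriers of the inner mitochondrial membrane that are related to the thermogenic uncoupling protein; Ucp3 is largely a muscle gene, whereas Ucp2 is widely expressed and abundant in immune cells. Pdk4 encodes a kinase that inactivates pyruvate dehydrogenase and so limits glucose oxidation, and Angptl4 encodes a secreted inhibitor of lipoprotein lipase. Acot1 and Acot2 encode thioesterases of the cytosol and mitochondria that release fatty acids from acyl-CoA, and Plin2 and Plin5 encode coat proteins of lipid droplets, Plin5 mainly in oxidative tissues. In fasting or on a high-fat diet these genes are known to be induced together in heart.

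All 8 genes are protein-coding on the mouse build GRCm38. Ucp3 (chromosome 7, 100472990 to 100486432, plus strand) and Ucp2 (chromosome 7, 100493337 to 100502020, plus strand) lie in tandem with 6904 bases between them. Acot2 (chromosome 12, 83987861 to 83993873) and Acot1 (chromosome 12, 84009490 to 84018371) are also tandem neighbours, 15616 bases apart on the plus strand. Pdk4 (chromosome 6, 5483351 to 5496309), Plin2 (chromosome 4, 86648386 to 86670060), Angptl4 (chromosome 17, 33773750 to 33781830) and Plin5 (chromosome 17, 56111601 to 56117596) are on the minus strand. Acot1 and Acot2 are near-identical in part: 645 of the 2157 distinct 31-base words in the Acot2 transcript (29.9%) also occur in Acot1 transcripts, and 37.3% occur in some other gene. For Ucp3 this share was 0 of 3190 words, so its reads were not exposed to such sharing.

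The 250 bases before the start annotated there were read for the genes in RefSeq's promoter table (build GRCm38.p6), which matched 7 of the 8, all but Angptl4. That start can differ from the gene bounds given above. The Ucp2 window ends at 100493357 and the Pdk4 window begins at 5496279, both inside those bounds. The window of the second listed Plin5 promoter (chr17:56117299-56117548) lies wholly inside them. The 250 bases are shown for the 2 neighbours that moved in opposite directions and for Pdk4, which had the highest TPM of the 8 in control hearts. Each runs 5′ to 3′ on the gene's strand, in lower case, with each exact copy of AGGTCA, the half-site to which these receptors bind, in capitals.
Ucp2, chr7:100493108-100493357, plus strand: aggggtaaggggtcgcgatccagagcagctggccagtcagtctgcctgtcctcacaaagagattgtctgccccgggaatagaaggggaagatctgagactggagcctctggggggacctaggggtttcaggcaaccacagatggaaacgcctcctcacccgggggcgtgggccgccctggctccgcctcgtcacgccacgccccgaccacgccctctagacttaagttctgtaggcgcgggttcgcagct
Ucp3, chr7:100472741-100472990, plus strand: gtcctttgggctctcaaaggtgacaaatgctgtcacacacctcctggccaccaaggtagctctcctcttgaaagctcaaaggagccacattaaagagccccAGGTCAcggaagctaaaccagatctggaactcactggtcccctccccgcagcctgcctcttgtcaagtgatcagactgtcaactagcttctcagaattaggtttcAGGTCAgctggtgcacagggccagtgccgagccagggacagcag
Pdk4, chr6:5496279-5496528, minus strand: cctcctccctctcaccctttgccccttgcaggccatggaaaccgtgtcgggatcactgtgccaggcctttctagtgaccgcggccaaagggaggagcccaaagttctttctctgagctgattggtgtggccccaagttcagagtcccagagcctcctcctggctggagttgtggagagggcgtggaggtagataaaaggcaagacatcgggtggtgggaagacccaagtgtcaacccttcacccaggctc

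AGGTCA was searched on both strands. Ucp3 held 2 copies, 149 to 144 and 44 to 39 bases before the start, and Plin2 and the first of the 2 listed Plin5 promoters held 1 each, so 3 of the 8 windows had the half-site. Over all 32851 mouse windows of this length the share was 14.0%. The full receptor element, a direct repeat of AGGTCA with 1 base between the copies, was in 0.0335% of all windows and in none of these 8. With up to 2 mismatches it was in 3.24% of all windows and in Ucp3 and Plin2; the Ucp3 match, 51 to 39 bases before the start, contains its second half-site, so the 2 motifs overlap there. The closest matches in Ucp2 and Pdk4 had 4 mismatches. These are letters in a short window and say nothing about binding here or elsewhere.

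The libraries held 61177646 to 83928922 estimated counts, the deepest being HFpEF + TYA-018 replicate 1, so counting error was small for all members except Acot1 (55 to 230 counts per library; the other 7 had 380 to 43358). Ventricular cardiomyocyte markers were abundant in every library (8 of 8 tested, summed level 25485 to 38574 CPM), as the labelled tissue would hold, while 7 adipocyte markers summed to at most 1.98 CPM, with Lep and Plin1 at 0 in all 4 HFpEF + Veh libraries. Other cell markers moved with the groups. The summed CPM of 8 macrophage markers was 136 to 169 for Control + Veh, 211 to 281 for HFpEF + Veh and 155 to 189 for HFpEF + TYA-018, and that of 7 red cell markers was 1554 to 2310, 4790 to 14155 and 2297.9 to 3573. Endothelial markers (6 genes) summed to 710 to 816, 869 to 1051 and 684 to 853, and fibroblast markers (7 genes) to 453 to 690, 727 to 1029 and 466 to 664. The cardiomyocyte sum was 27490 to 38574, 25485 to 27075 and 29092 to 32001. Mitochondrially encoded genes took 37.0 to 40.6%, 43.1 to 47.7% and 35.4 to 41.2% of the counts. In bulk tissue fewer cells of a type and less RNA per cell cannot be told apart.

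Between the groups, CPM (counts per 1000000 after TMM scaling of the library sizes) of the uncoupling proteins moved furthest with the disease model, Pdk4 was lower in both HFpEF groups, Acot1 was highest with TYA-018, and Acot2 and the droplet proteins differed by at most 1.22-fold. HFpEF + Veh against Control + Veh, 2 of the 8 genes passed the edgeR threshold (adjusted p under 0.05 over all tested genes), Ucp2 upward and Ucp3 downward, where 21.2% of all 14333 tested genes passed, 10.9% upward and 10.3% downward. With TYA-018 against HFpEF + Veh, 3 passed, Ucp3 upward and Ucp2 and Angptl4 downward, against 19.3% of all genes (8.93% upward, 10.4% downward; 1280 and 1487 genes, which became 2228 and 68 when log2(TPM + 1) was tested by limma). With TYA-018 against Control + Veh, 2 passed, Acot1 upward and Pdk4 downward, against 5.86% of all genes (3.12% upward, 2.74% downward). Groups did not overlap in CPM for 4 of the 8 genes in the first comparison, 1 in the second and 3 in the third, where this held for 23.5%, 25.1% and 14.8% of all tested genes. Since these comparisons chose the genes, nothing is read from the counts. The median log2 fold change of the 8 was 0.14, 0.14 and 0.22 in the 3 comparisons, against -0.01, 0.00 and -0.02 over all tested genes. The comparisons share groups, so a gene high in HFpEF + Veh alone appears in 2 of them with opposite signs.

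**Figure D1:**
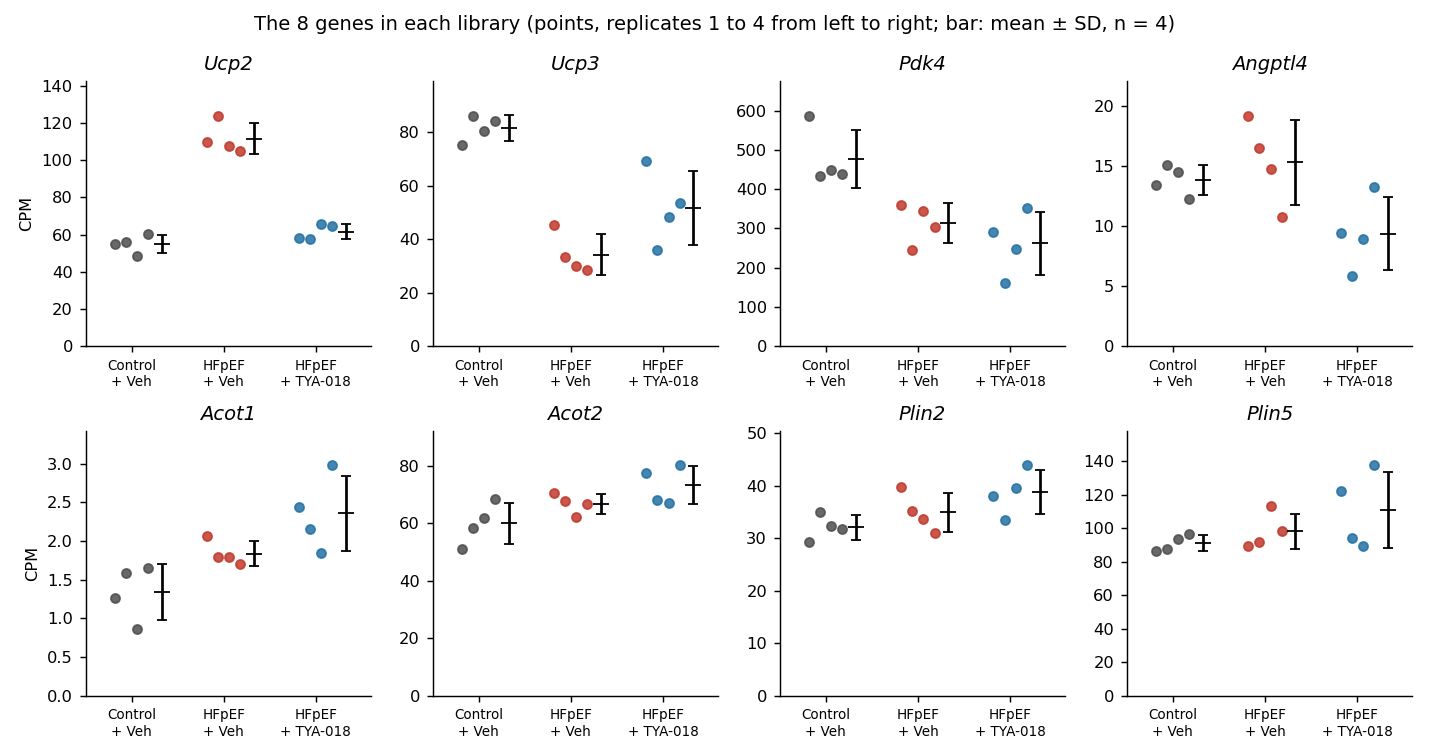
Each panel plots CPM (y axis, from 0) of 1 gene in the 4 libraries of each group (x axis), with the mean ± SD beside the points. Ucp2 in HFpEF + Veh (105 to 124) lies above all 8 other libraries, Ucp3 in HFpEF + Veh (28.4 to 45.3) lies below all 4 Control + Veh libraries, and Acot2, Plin2 and Plin5 overlap between neighbouring groups.

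Ucp2 was 2.03-fold higher in HFpEF + Veh hearts than in controls and close to control with TYA-018 when counts were scaled by depth. Its CPM was 54.7, 56.0, 48.7 and 60.5 in the Control + Veh hearts, 109.7, 124, 108 and 105 in HFpEF + Veh, and 58.4, 57.6, 65.8 and 64.8 in HFpEF + TYA-018. The 4 HFpEF + Veh libraries stood clear of the other 8, while the other 2 groups overlapped. The group means were 55.0 ± 4.86, 112 ± 8.44 and 61.7 ± 4.26 (SD, n = 4). The log2 fold change was 1.02 (SE 0.08) for HFpEF + Veh against Control + Veh, -0.86 (SE 0.08) for TYA-018 against HFpEF + Veh, and 0.17 (SE 0.08) for TYA-018 against Control + Veh. Leaving out any 1 library kept the first between 0.97 and 1.07 and the second between -0.89 and -0.80.

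The lower Ucp2 level with TYA-018 depended on the scale. The effective length, the number of bases by which Salmon divides a gene's counts to obtain TPM (transcripts per 1000000), was 1962 ± 466 bases in Control + Veh, 1669 ± 191 with HFpEF + Veh and 1297 ± 109 with TYA-018 (SD, n = 4). In TPM the levels were 14.3, 7.84, 7.09 and 12.2 in Control + Veh, 23.7, 19.9, 22.6 and 19.3 in HFpEF + Veh, and 23.6, 17.6, 19.9 and 14.4 in HFpEF + TYA-018. On that scale both HFpEF groups lay above every control library, the lowest of the treated ones (14.38) only just above the highest control (14.35), and the HFpEF groups overlapped. The difference between them was -0.19 with log2(TPM + 1), beside a median of 0.17 over all tested genes. It was -0.43 when mitochondrially encoded genes were left out and the rest rescaled (median 0.09), and it passed the threshold in neither. With effective lengths entered as an offset of the count model it was -0.64 and passed. The difference between TYA-018 and Control + Veh was correspondingly 0.84 and 0.81 there, again without passing. The gene has 11 annotated transcripts of 396 to 3988 bases, and which of them were used was not tested.

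Macrophage, fibroblast, endothelial and red cell markers were likewise high in HFpEF + Veh. Of 8 tested macrophage markers, 7 rose with the disease model and 4 fell with TYA-018 against HFpEF + Veh by edgeR at the same threshold, with median log2 fold changes of 0.72 and -0.48. In the fibroblast list 4 of 7 rose and 5 of 7 fell (medians 0.72 and -0.50), in the endothelial list 3 of 6 rose and 3 of 6 fell in these comparisons, and in the red cell list 7 of 7 rose and 7 of 7 fell. Their part in the Ucp2 levels was not tested.

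**Figure D2:**
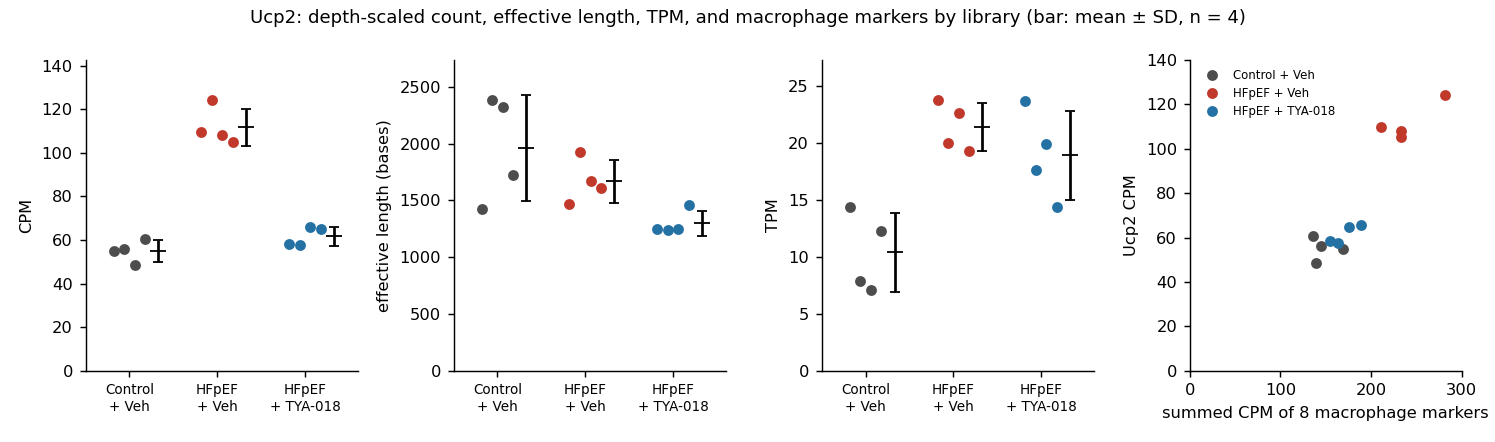
The first 3 panels plot Ucp2 CPM, its effective length in bases and its TPM in each library by group (all y axes from 0; bar, mean ± SD, n = 4), and the last plots Ucp2 CPM against the summed CPM of 8 macrophage markers. With TYA-018, 2 of the 4 libraries lie in the control range in CPM and the other 2 (64.8 and 65.8) just above it, whereas in TPM all 4 lie above the controls, and the HFpEF + Veh libraries are highest for both Ucp2 CPM and macrophage markers.

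Ucp3 moved the opposite way. Its CPM was 75.4, 86.3, 80.7 and 84.2 in Control + Veh, 45.3, 33.4, 30.0 and 28.4 in HFpEF + Veh, and 69.4, 36.1, 48.3 and 53.6 in HFpEF + TYA-018. Every HFpEF library was below every control library, and 3 of the 4 treated libraries were above all 4 HFpEF + Veh libraries, replicate 2 lying within their range. The means were 81.7 ± 4.79, 34.2 ± 7.65 and 51.8 ± 13.8 (SD, n = 4). The log2 fold change was -1.25 (SE 0.18), 0.60 (SE 0.18) and, for TYA-018 against Control + Veh, -0.65 (SE 0.18). The first stayed between -1.41 and -1.17 without any 1 library. The second ranged from 0.43 to 0.76 and passed the threshold only when HFpEF + Veh replicate 1 or HFpEF + TYA-018 replicate 2 was the library left out. Of 8 ventricular cardiomyocyte markers, 6 fell and 1 rose with the model and 3 rose with TYA-018 against HFpEF + Veh by edgeR; their part in the Ucp3 levels was not tested.

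In TPM, Ucp3 was 6.87 ± 0.29 in Control + Veh, 2.53 ± 0.49 with HFpEF + Veh and 6.18 ± 3.49 with TYA-018. The treated group spread widely on this scale, at 11.4, 4.10, 4.90 and 4.33, and all 4 libraries were above HFpEF + Veh. Replicate 1 of that group, the deepest library, had the highest TPM of its group for 7 of the 8 genes, but the highest CPM for 1, so its TPM values stand apart from its depth-scaled counts. Within a library the ratio of Ucp2 to Ucp3 in TPM was 1.09 to 2.05 for Control + Veh, 7.51 to 9.65 for HFpEF + Veh and 2.08 to 4.30 for HFpEF + TYA-018. No library of 1 group had a ratio within the range of another.

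Pdk4 was lower in CPM in both HFpEF groups than in controls, with or without the drug. Its CPM was 588, 434, 448 and 438 in Control + Veh, 360.3, 244, 345 and 305 in HFpEF + Veh, and 290.2, 160.4, 248 and 352 in HFpEF + TYA-018. All 8 HFpEF libraries were below all 4 controls, and the 2 HFpEF groups overlapped. The means were 477 ± 74.3, 313 ± 51.8 and 262 ± 80.3 (SD, n = 4). The log2 fold change was -0.61 (SE 0.21) with the disease model, which did not pass the threshold, -0.26 (SE 0.20) for TYA-018 against HFpEF + Veh, and -0.86 (SE 0.21) for TYA-018 against Control + Veh, which did. The last ranged from -1.03 to -0.69 with 1 library left out and passed only without HFpEF + TYA-018 replicate 4, the highest of its group. It also did not pass with effective lengths (-0.77), with 2 groups in the fit (-0.85), or with log2(TPM + 1) (-0.55), log2(TPM + 0.1) (-0.58) and rescaled TPM (-0.63). In TPM the treated mean lay above that of HFpEF + Veh (19.2 ± 8.59 against 14.1 ± 3.64, control 27.3 ± 6.60). On that scale the treated libraries (11.7 to 31.5) and the controls (23.0 to 37.1) overlapped. The log2 difference between the HFpEF groups changed sign, to 0.36 with log2(TPM + 1), beside a median of 0.17 over all tested genes. With log2(TPM + 0.1) it was 0.38, beside a median of 0.34.

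Angptl4 was lower in CPM in most treated hearts than in the other groups. Its CPM was 13.4, 15.1, 14.5 and 12.3 in Control + Veh, 19.2, 16.6, 14.7 and 10.8 in HFpEF + Veh, and 9.41, 5.85, 8.91 and 13.2 in HFpEF + TYA-018. Of the 4 treated libraries 3 were below every library of the other groups, and replicate 4 was not. The means were 13.8 ± 1.24, 15.3 ± 3.55 and 9.36 ± 3.03 (SD, n = 4). The log2 fold change was 0.15 (SE 0.21) with the disease model, -0.71 (SE 0.22) for TYA-018 against HFpEF + Veh and -0.56 (SE 0.22) for TYA-018 against Control + Veh. The second was between -0.92 and -0.54 with 1 library left out and passed the threshold only without HFpEF + Veh replicate 4 or HFpEF + TYA-018 replicate 4. Its effective length varied 4.96-fold between libraries, from 1453 to 7204 bases, the widest range of the 8, and its TPM of 0.44 to 3.55 carried that spread. In TPM the treated libraries (0.44 to 1.24) overlapped Control + Veh (0.71 to 3.39) and HFpEF + Veh (0.71 to 3.55). With effective lengths in the count model the difference between TYA-018 and HFpEF + Veh was -1.73, without passing. It also did not pass with 2 groups in the fit (-0.71), log2(TPM + 1) (-0.69), log2(TPM + 0.1) (-1.11) or rescaled TPM (-1.11).

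Mean CPM of Acot1 and Acot2 was lowest in Control + Veh and highest with TYA-018, with a 1.76-fold difference between these groups for Acot1 and 1.22-fold for Acot2. Acot1 was scarce, at 0.87 to 1.65, 1.70 to 2.06 and 1.85 to 2.98 CPM, and both HFpEF groups lay above all controls. Its log2 fold change was 0.45 (SE 0.21), 0.36 (SE 0.21) and 0.81 (SE 0.21), and the last passed the threshold; with 1 library left out it ranged from 0.66 to 0.93 and passed only without HFpEF + TYA-018 replicate 3. It also did not pass with effective lengths (0.87), without the filter, with 2 groups in the fit, or with log2(TPM + 1) (0.16), log2(TPM + 0.1) (0.68) and rescaled TPM (0.29); its TPM of 0.07 to 0.33 is below the pseudocount of 1. Acot2 was 51.1, 58.4, 61.9 and 68.5 CPM in Control + Veh, 70.5, 67.7, 62.1 and 66.7 in HFpEF + Veh, and 77.5, 68.2, 67.3 and 80.2 in HFpEF + TYA-018. Its groups overlapped in CPM in each comparison, and its log2 fold changes were 0.15, 0.13 and 0.29 (SE 0.09 each), none past the threshold. In TPM its 4 treated libraries (8.24 to 14.1) lay above all libraries of HFpEF + Veh (6.17 to 7.57) and Control + Veh (6.02 to 7.60), and the log2(TPM + 1) differences were 0.45 and 0.48. The medians over all tested genes on that scale were 0.17 and 0.08. Acot1 in TPM likewise did not overlap between the treated and either other group. In TPM, where levels of different genes can be set side by side, Acot2 was 35.98 to 92.7 times as abundant as Acot1 in a library. Because the 2 genes share sequence, reads may have been split between them. The sum of both, fitted as 1 gene, changed by 0.16, 0.14 and 0.30, and the sum of Acot1 to Acot6 by 0.14, 0.15 and 0.29.

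Plin2 and Plin5 overlapped between all groups in CPM. Plin2 was 29.3, 34.9, 32.4 and 31.7 CPM in Control + Veh, 39.8, 35.2, 33.7 and 31.04 in HFpEF + Veh, and 38.1, 33.5, 39.6 and 43.9 in HFpEF + TYA-018, with log2 fold changes of 0.12, 0.15 and 0.27 (SE 0.09 each). Plin5 was 86.6, 87.5, 93.5 and 96.7, then 89.8, 91.8, 113 and 98.5, then 122, 94.5, 89.6 and 138 CPM in the same order of groups, with log2 fold changes of 0.11, 0.18 and 0.29 (SE 0.13 each). None passed the threshold. In TPM the 4 treated libraries of Plin5 (14.8 to 31.03) lay above all controls (12.8 to 13.7), a 1.54-fold difference of the means, but overlapped HFpEF + Veh (10.8 to 20.1). Plin2 overlapped between all groups in TPM too, and with effective lengths in the count model its difference between the HFpEF groups turned to -0.12. The adipocyte markers named above, including the fat cell perilipin Plin1, were at or near 0 in all groups.

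**Figure D3:**
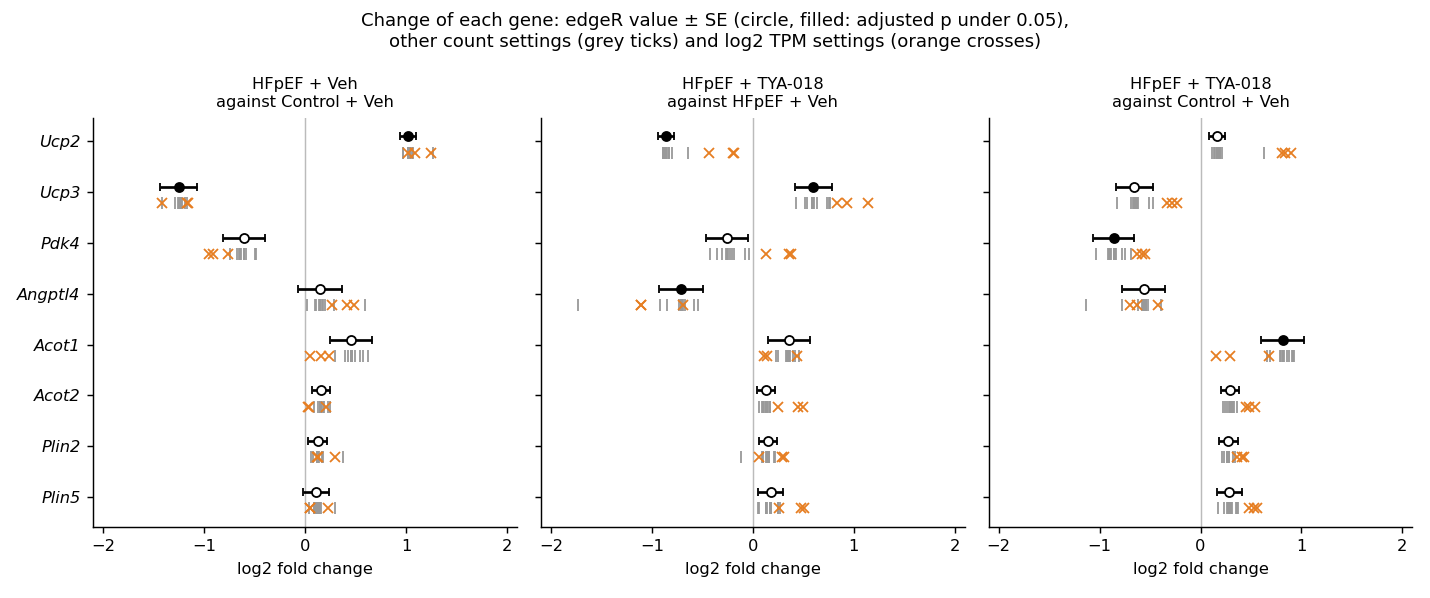
Each panel is 1 comparison; the x axis is the log2 fold change and the circles with bars are the edgeR values ± SE, filled where the adjusted p was under 0.05. Grey ticks (other count settings) and orange crosses (log2 TPM settings) are the values under other processing: for Ucp2 they agree on 1.02 to 1.27 in HFpEF + Veh against Control + Veh and run from -0.86 to -0.19 in TYA-018 against HFpEF + Veh, leave-one-out values aside.

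In TPM the control hearts ordered the genes as Pdk4 (27.3 ± 6.60), Plin5 (13.2 ± 0.44), Ucp2 (10.4 ± 3.48), Plin2 (8.74 ± 1.80), Ucp3 (6.87 ± 0.29), Acot2 (6.66 ± 0.67), Angptl4 (1.67 ± 1.23) and Acot1 (0.11 ± 0.03). Neighbours from Plin5 to Acot2 differed by less than their summed SDs, so the order of adjacent genes there is not clear. Plin5 (12.8 to 13.7) did lie above Plin2 (6.07 to 9.89), Ucp3 (6.51 to 7.18) and Acot2 (6.02 to 7.60) in every control library. In 4 of the 8 genes (Ucp3, Pdk4, Acot1 and Acot2) the effective length was longer than the longest annotated transcript in every library, for Pdk4 4641 to 7665 bases against 3484, so that their TPM is lower than division by an annotated length would give. The study's methods state that Salmon ran with sequence, GC and position bias corrections, which alter effective lengths; their part was not tested.

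Within groups, several members were high or low in the same hearts. HFpEF + TYA-018 replicate 2 had the lowest CPM of its group for 5 genes (Ucp2, Ucp3, Pdk4, Angptl4 and Plin2) and replicate 4 the highest for 6 (all but Ucp2 and Ucp3). In HFpEF + Veh, replicate 1 was highest for 6 genes (all but Ucp2 and Plin5) and replicate 4 was lowest for 5 (Ucp2, Ucp3, Angptl4, Acot1 and Plin2). In Control + Veh no library was highest for more than 4. Animals, not lanes or batches, are what the labels distinguish within a group.

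**Figure D4:**
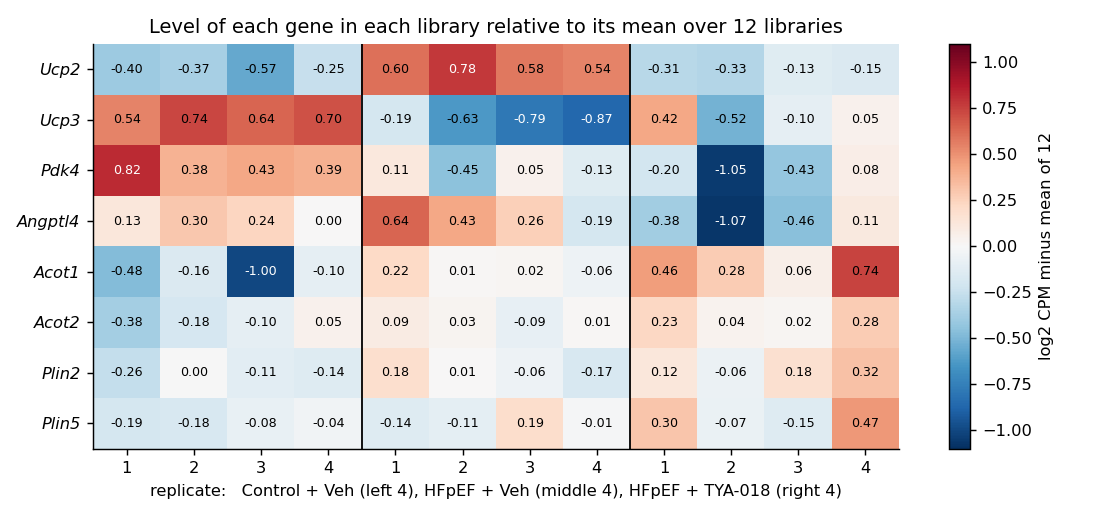
Rows are the 8 genes and columns the 12 libraries by group; colour and number give log2 CPM minus the gene's mean over the 12 libraries. Ucp2 and Ucp3 change colour in opposite directions between Control + Veh and HFpEF + Veh. In HFpEF + TYA-018 Ucp2 is blue throughout, whereas Ucp3 is mixed (0.42, -0.52, -0.10 and 0.05). HFpEF + TYA-018 replicate 2 is dark blue for Pdk4 (-1.05) and Angptl4 (-1.07).

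For each member the 2 other genes with the most similar log2 CPM over the 12 libraries were taken from the 8858 non-member genes with a mean of at least 5 CPM, as a description. Ucp2 was closest to Lgals9, a galectin of immune cells (Pearson r = 0.97 over 12 libraries, 0.56 for deviations from group means), and Kcnk6, a potassium channel (0.97 and 0.62). Ucp3 was closest to Synj2 (0.94 and 0.66) and Fam126a (0.94 and 0.73). Pdk4 was closest to Upf2, a factor of nonsense-mediated decay (0.89 and 0.92), and Dgcr14 (0.89 and 0.76), and Angptl4 to Irak3, an inhibitor of interleukin receptor signalling (0.89 and 0.84), and C130074G19Rik (0.88 and 0.75). Acot1 was closest to Ppp2r5a, a phosphatase subunit (0.94 and 0.82), and Aars, the alanyl-tRNA synthetase (0.89 and 0.68), Acot2 to Fbp2, the muscle fructose-bisphosphatase (0.89 and 0.78), and Fkbp10 (0.88 and 0.76), Plin2 to Tpst1 (0.90 and 0.84) and Retsat, the retinol saturase (0.82 and 0.72), and Plin5 to Fkbp10 (0.87 and 0.82) and Pla2g12a (0.85 and 0.85). No member was among the others' neighbours, since members were left out, and every r shares the libraries and their scaling.

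The surrounding pathway was read from 10 lists of 132 genes, 125 of them tested. The lists were chosen with earlier results of these data known. Their counts and adjusted p-values are therefore a description and no independent support. HFpEF + Veh against Control + Veh, 15 were higher and 15 lower by edgeR; with TYA-018 against HFpEF + Veh 34 were higher and 12 lower, and with TYA-018 against Control + Veh 30 were higher and 1 lower, beside the shares of all genes given above. The genes called were 24%, 36.8% and 24.8% of those tested, beside 21.2%, 19.3% and 5.86% of all tested genes. The median log2 fold changes were 0.03, 0.15 and 0.13.

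Among 14 receptors and coregulators edgeR called 1 with the model (7.14%), beside 21.2% of all tested genes. It called 3 with TYA-018 against HFpEF + Veh (21.4%, beside 19.3%) and 1 against Control + Veh (7.14%, beside 5.86%). Ppara, the main fatty acid receptor of cardiomyocytes, was 3.504, 4.21 and 4.42 CPM on average, with log2 fold changes of 0.27 (edgeR adjusted p = 0.53), 0.07 (0.89) and 0.34 (0.52). Ppard, which is also abundant in muscle, rose by 0.20 with the disease model (edgeR adjusted p = 0.043) and differed by -0.03 with TYA-018 (0.76). Pparg, the adipocyte receptor, was 8.07 ± 1.78, 13.5 ± 1.89 and 6.78 ± 2.42 CPM (SD, n = 4): its difference with the disease model was 0.74 (edgeR adjusted p = 0.057), and with TYA-018 it fell by 0.996 on the log2 scale (edgeR adjusted p = 0.0195). Ppargc1a, a coactivator of mitochondrial genes, differed by 0.34 (edgeR adjusted p = 0.16), -0.12 (0.66) and 0.22 (0.47). Rxrb, a retinoid X receptor, rose by 0.30 with TYA-018 against HFpEF + Veh (edgeR adjusted p = 0.0029) and by 0.23 against Control + Veh (0.021), and the corepressor Nrip1 fell by 0.47 against HFpEF + Veh (0.015).

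Most mitochondrial beta-oxidation genes, which act beside these members, were higher with TYA-018 than in either other group. Of 23 tested, 1 rose and 2 fell in HFpEF + Veh against Control + Veh, 18 rose and 0 fell with TYA-018 against HFpEF + Veh, and 18 rose and 0 fell with TYA-018 against Control + Veh (median log2 fold changes 0.05, 0.38 and 0.35). With 1 library of the 2 compared groups left out, the 18 became 12 to 18 against HFpEF + Veh and 10 to 15 against Control + Veh. The lowest were 12 without HFpEF + Veh replicate 1 or HFpEF + TYA-018 replicate 1 and 10 without HFpEF + TYA-018 replicate 1 or 2. With effective lengths in the model the counts were 6 and 7. In TPM they were 18 and 1 with either pseudocount, and 11 and 4 after rescaling. The thiolase Acaa2 (log2 0.57, edgeR adjusted p = 0.0026), the hydratase Echs1 (0.52, 0.0010) and the dehydrogenase Acads (0.47, 0.0017) led against HFpEF + Veh, Echs1 after being lower by 0.26 in the disease model (-0.26, 0.019). Mlycd, malonyl-CoA decarboxylase, fell by 0.60 with the model (edgeR adjusted p = 0.0020). Cpt2 (0.56, edgeR adjusted p = 0.0027) and Hadhb (0.59, 0.0021) were among the 18 against Control + Veh. Among the members, Acot1, Acot2, Plin2 and Plin5 had positive log2 fold changes with TYA-018 against both other groups in CPM. Pdk4 and Angptl4 had negative ones, and Ucp2 and Ucp3 each had 1 of either sign. For Pdk4 against HFpEF + Veh the value was -0.26 (SE 0.20), and 0.13 to 0.38 in the TPM settings.

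Around Pdk4, 13 genes of pyruvate dehydrogenase control gave 0 higher and 2 lower with the model (Pdk2, a kinase of the same complex, by -0.37, edgeR adjusted p = 0.010, and the pyruvate carrier Mpc1 by -0.28, 0.0095) and 5 higher and 0 lower with TYA-018 against HFpEF + Veh, led by the subunits Pdha1 (0.29, 0.0077) and Pdhb (0.22, 0.025) and the carrier Mpc2 (0.34, 0.020). Against Control + Veh the 1 gene called was Pdk1 (0.38, edgeR adjusted p = 0.023). Of these 13 genes 15.4%, 38.5% and 7.69% were called, beside 21.2%, 19.3% and 5.86% of all tested genes. Around the uncoupling proteins, 6 of 7 carriers were tested, thermogenic Ucp1 being too low. The muscle adenine nucleotide carrier Slc25a4 fell by 0.49 with the model (edgeR adjusted p = 0.0062) and rose by 0.33 with TYA-018 (0.039), while the widely expressed Slc25a5 rose by 0.41 (0.0050), and by 0.56 with TYA-018 against Control + Veh (0.0043). Slc25a30 rose by 0.60 (edgeR adjusted p = 0.0035) and fell by 0.48 (0.011), and Slc25a27, named after its values were seen, fell by 0.89 with the model (0.011).

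Droplet and lipolysis genes other than the members gave 1 higher and 2 lower of 15 with the model: the monoglyceride lipase Mgll rose by 0.46 (edgeR adjusted p = 0.0020), and Plin4 and Fitm1 fell by 0.37 (0.015) and 0.51 (0.0026). With TYA-018 against HFpEF + Veh 4 were higher and 1 lower, Dgat2 by 0.53 (edgeR adjusted p = 0.0016), Fitm2 by 0.35 (0.0055) and Mgll by -0.46 (0.0029), and against Control + Veh 2 were higher, Dgat2 by 0.33 (0.032) and Cidea by 0.38 (0.045). Of the 15 droplet genes 20%, 33.3% and 13.3% were called, beside 21.2%, 19.3% and 5.86% of all tested genes. Of 9 tested acyl-CoA thioesterases 1 was called in any comparison (11.1% with the model), Acot7, lower by 0.35 with the model (-0.35, edgeR adjusted p = 0.021). Peroxisomal oxidation gave 0 higher and 2 lower of 10 with the model, Ehhadh by -0.72 (edgeR adjusted p = 0.010) and Acaa1a by -0.37 (0.029), and 3 higher with TYA-018 in each comparison, among them Ephx2 (0.41, 0.0094, and 0.64, 0.0035) in both, Acaa1a against HFpEF + Veh (0.52, 0.0070) and Hsd17b4 against Control + Veh (0.28, 0.032). Of the 10 peroxisomal genes 20%, 30% and 30% were called, beside the same shares of all tested genes.

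In fatty acid uptake and binding 3 of 12 were higher and 2 lower with the model, among them Gpihbp1, which anchors lipoprotein lipase to capillaries (0.41, edgeR adjusted p = 0.0022), the acyl-CoA binding protein Dbi (0.54, 0.012) and the receptor Vldlr (-0.46, 0.0023). With TYA-018 against HFpEF + Veh, Gpihbp1 fell by 0.49 (edgeR adjusted p = 0.0014), Fabp4 fell by 0.34 (0.024) and Vldlr rose by 0.26 (0.037), 1 higher and 3 lower in all. Both Gpihbp1 and Fabp4 are endothelial in heart, and the endothelial marker sum moved the same way; its part was not tested. Lpl, the lipase that Angptl4 inhibits, named after its values were seen, fell by 0.36 with the model (edgeR adjusted p = 0.015) and was also 0.36 below control with TYA-018 (-0.36, 0.039). Against Control + Veh 3 were higher and 1 lower, led by Slc27a4 (0.34, edgeR adjusted p = 0.0093), Dbi (0.62, 0.019) and Fabp3 (0.44, 0.027). Of the 12 uptake genes 41.7%, 33.3% and 33.3% were called, beside 21.2%, 19.3% and 5.86% of all tested genes. Of 5 tested angiopoietin-like relatives of Angptl4, Angptl2 (0.36, edgeR adjusted p = 0.0051) and Angptl1 (0.65, 0.026) rose and Angptl6 fell by 0.59 (0.038) with the model, and 0 were called with TYA-018 in either comparison by edgeR. Those called with the model are 60% of the 5.

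Genes of fasting and glucocorticoid signalling, inputs that are known to drive Pdk4 and Angptl4, were more often higher than lower with the model. Of 19 tested, 6 rose and 1 fell with the model, 1 rose and 5 fell with TYA-018 against HFpEF + Veh, and 2 rose and 0 fell against Control + Veh, among them Foxo4 (0.27, edgeR adjusted p = 0.023). The shares called were 36.8%, 31.6% and 10.5%, beside 21.2%, 19.3% and 5.86% of all tested genes. Cdkn1a rose by 1.23 (edgeR adjusted p = 4.4e-04) and fell by 1.02 (0.0012), Sgk1 rose by 0.92 (4.1e-04) and fell by 0.83 (6.8e-04), and Fkbp5 fell by 0.87 with TYA-018 (0.0026), to 68.2 CPM from 124. With log2(TPM + 1) in place of counts, 4, 53 and 1 of the 125 list genes passed in the 3 comparisons, 52 of the 53 upward, so the lower calls of this and the other lists with TYA-018 rest on the count scale. Among the named calls, several were lost in 10 or more of the 21 alternatives tried for each: those of Cidea (15), Dgat2 (11) and Hsd17b4 (11) with TYA-018 against Control + Veh, of Slc25a4 with TYA-018 against HFpEF + Veh (11), and of Angptl6 (15), Ppard (13) and Acaa1a (10) with the model. That of Fabp4 with TYA-018 against HFpEF + Veh fell below the threshold in 8 and changed sign without passing in 2 more.

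**Figure D5:**
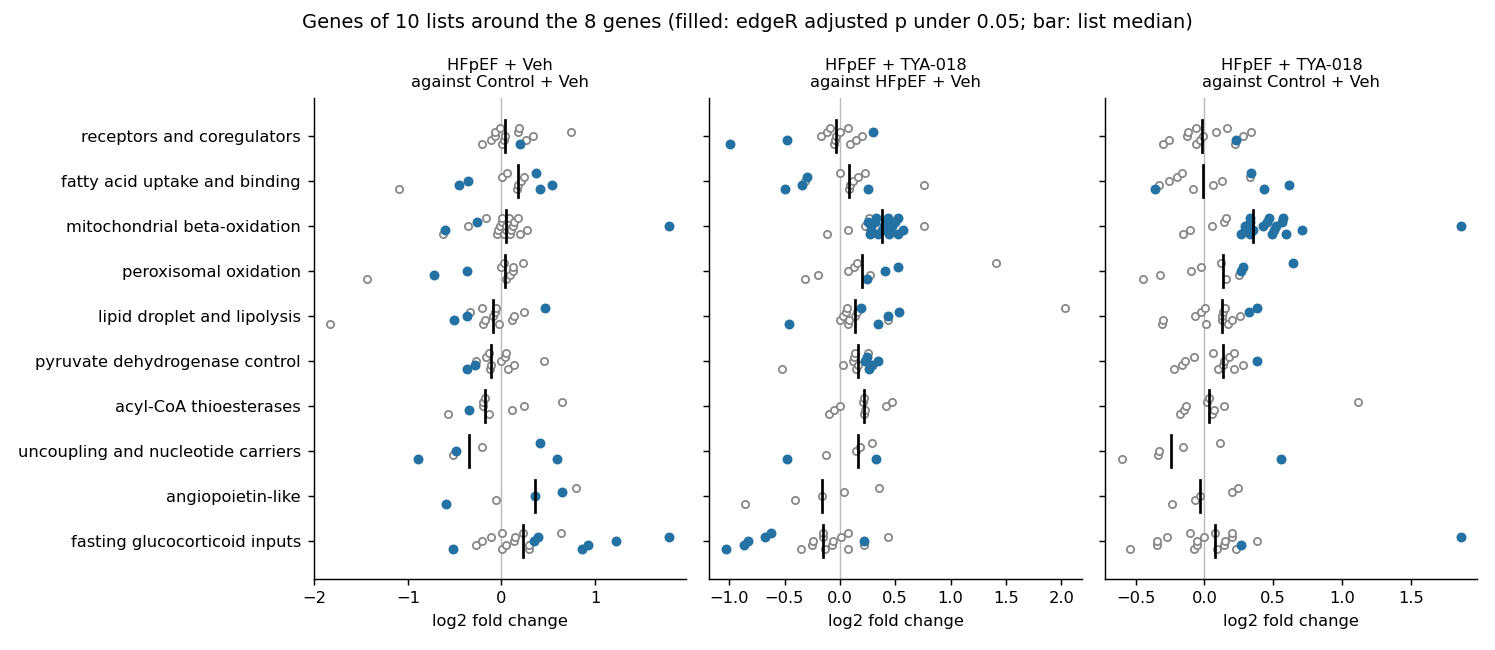
Each row is 1 list and each point 1 gene; the x axis of each panel is the log2 fold change of 1 comparison, filled points passed the edgeR threshold and bars are list medians. Mitochondrial beta-oxidation is centred near 0 with the disease model (median 0.05) and to the right with TYA-018 (0.38 and 0.35).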

How the data were processed

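Poly(A) RNA of 12 mouse left ventricles was sequenced. Per the study's methods, the authors trimmed reads and quantified them with Salmon against GENCODE M25 (GRCm38.p6); the submitters' processing notes name Salmon 1.6.0 and a human build, which the mouse symbols contradict. The authors deposited estimated counts, TPM and effective lengths per gene; effective length is in bases, adjusted by Salmon for sequence, GC and position bias. Members and lists were chosen with earlier results of these data known.

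Estimated counts were rounded, filtered (filterByExpr) and fitted with edgeR 4.0.16 quasi-likelihood (TMM, all 12 libraries, no covariate), with two-sided p-values adjusted over 14333 genes by the Benjamini-Hochberg method. The smallest 3 p-values per list and comparison, and 4 receptors and coactivators (Ppara, Ppard, Pparg, Ppargc1a), are named, except some results not reported here. Alternatives used DESeq2, RLE factors, no filter, effective-length offsets, no mitochondrial genes, summed Acot paralogs, fewer groups or libraries, and limma on log2(TPM + 1), log2(TPM + 0.1) or TPM rescaled without mitochondrial genes. The code was tested on simulated data. Labels number animals, so spread is between hearts; label and paper differ on read layout. Intervals were not computed. Libraries held 61177646 to 83928922 counts, where counting error was small for all members except Acot1. Depth does not reduce the spread between hearts of a group, which is given as SD.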

Additional observations from a re-analysis of the deposited data

Results flagged for a closer look

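In a group of 4 hearts, 1 library was set apart when its gap to the nearest other exceeded Dixon's 95% critical share of the group's range, which chance alone does in about 1 of 20 groups; 10 of 165 groups of the members and named list genes met it. Among the members this was Pdk4 in Control + Veh, where replicate 1 reached 588 CPM and the other 3 lay between 434 and 448. Without that heart the log2 fold change of Pdk4 was -0.49 for HFpEF + Veh and -0.75 for TYA-018 against controls. Among list genes in Control + Veh, Angptl1 was high in replicate 3 (1.37 CPM) and Hsd17b4 was low in replicate 2 (38.2 CPM). In HFpEF + Veh, Cpt2 was high in replicate 4 (180.7 CPM), Fkbp5 was low in replicate 1 (106 CPM) and Slc25a30 was low in replicate 3 (9.62 CPM). In HFpEF + TYA-018, Fitm1 was high in replicate 2 (88.8 CPM), Slc27a4 was high in replicate 3 (19.0 CPM), Pdk2 was low in replicate 3 (305 CPM) and Plin4 was low in replicate 4 (139 CPM).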

How the results depend on the processing

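Numbers of genes passing edgeR, for HFpEF + Veh against Control + Veh, TYA-018 against HFpEF + Veh and TYA-018 against Control + Veh, were 3033, 2767 and 840 among all tested genes and 30, 46 and 31 among list genes. With effective lengths as offset they were 1445, 1217 and 203 among all genes, and 21 and 10 among list genes in the latter 2. Limma on log2(TPM + 1) gave 172 (51 higher, 121 lower), 2228 higher and 68 lower, and 9 (4 and 5), with 4 list genes in the first and 1 in the last; on log2(TPM + 0.1) it gave 301 (93 and 208), 2618 (2548 and 70) and 11 (7 and 4), with 5 and 1; rescaled without mitochondrial genes it gave 431 (204 and 227), 718 (620 and 98) and 25 (16 and 9), with 7, 21 and 7. The all-gene median log2 fold change moved to 0.17 (TYA-018 against HFpEF + Veh, pseudocount 1) and to -0.17, 0.34 and 0.17 (pseudocount 0.1). DESeq2 called 1514 genes in the last comparison. Without each replicate in turn the counts ran from 1986 to 3992, 1485 to 3251 and 308 to 809 among all genes, and from 22 to 39, 29 to 52 and 14 to 33 among list genes. The lowest were without Control + Veh replicate 4, HFpEF + TYA-018 replicate 1 and HFpEF + TYA-018 replicate 2; the cause was not tested. Of the other settings, those not named here left these counts within 1.5 times.

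For the members, 505 alternative values moved by less than 1 SD between replicates and 41 moved by more, and 0 turned the sign of a value past the threshold. The 505 include fits that could hardly move a value, those without a library of the group not compared and, for other members, those with summed Acot genes. All 41 came from effective lengths as offset or the TPM settings. Of the list genes' alternative values, 1187 kept direction and side of the threshold, 270 fell below it, 4 passed it and 30 changed sign. The sign changes by comparison were as follows. With the disease model, Pdk2 was 0.015 and Ppara -0.14 with effective lengths; Ppara was -0.12, -0.43 and -0.15 in the TPM settings (pseudocount 1, pseudocount 0.1, rescaled), and Ppargc1a was -0.031 and -0.046 in the first 2. With TYA-018 against HFpEF + Veh, effective lengths gave Ppara -0.38 and Ppargc1a 0.17; log2(TPM + 1) gave Fabp4 0.23, Nrip1 0.024, Ppard 0.22, Ppargc1a 0.42 and Slc25a30 0.052; log2(TPM + 0.1) gave Fabp4 0.23, Nrip1 0.064, Ppard 0.27, Ppargc1a 0.57 and Slc25a30 0.11; rescaled TPM gave Ppara -0.024, Ppard 0.025 and Ppargc1a 0.30. Leaving out HFpEF + Veh replicate 1, HFpEF + TYA-018 replicate 1 or replicate 2 gave Ppara -0.053, -0.0084 and -0.041, and over all single replicates left out Ppard ran from -0.069 to 0.0083, the latter without HFpEF + Veh replicate 4. With TYA-018 against Control + Veh, Ppara was -0.53 with effective lengths and -0.070, -0.18 and -0.17 in the TPM settings. No paired analysis was possible because each animal's number occurs in 1 group alone.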
